A study of Mus musculus with 6 samples.

Results

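The cell cycle and cyclin genes described here are 39 of the 23282 genes counted in liver RNA from mice with and without hepatocyte Tcf7l2, a transcription factor of the Wnt pathway. They were chosen by symbol as cyclins, cyclin-dependent kinases, kinase inhibitors, replication genes and mitosis genes, and they are given as 14 genes of G1, 12 of S phase and replication and 13 of G2 and mitosis. The wild-type group was 3 Tcf7l2 f/f mice, which carry the floxed allele without Cre. The knockout group was 3 Alb-Cre;Tcf7l2 f/f mice, in which the albumin promoter drives Cre, so that recombination is aimed at hepatocytes. Whether the floxed allele stayed intact in other liver cells was not tested here. Both groups were C57BL/6 mice of 12 weeks by the labels, fasted for 24 h and then refed normal chow for 24 h before the whole liver was taken. The study describes male knockout mice and wild-type littermates for its diet experiments, and its main text does not give sex or litter for the sequenced mice. Each library was counted as 1 mouse and is named by its group and the number in its label.

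A cell enters the cycle when cyclin D, bound to Cdk4 or Cdk6, starts to phosphorylate the retinoblastoma protein and E2F factors are released to drive S phase genes. Cyclin E with Cdk2 takes the cell into S phase, where the MCM helicase opens the origins, and cyclins A and B with Cdk1 take it through G2 and mitosis, while inhibitors such as p21 and p27 hold the kinases back. Adult hepatocytes are mostly quiescent and keep the ability to re-enter the cycle, and Ccnd1 is a textbook target of Wnt and TCF signalling.

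The libraries held 60619938 to 133384586 counts. The major urinary protein genes (Mup) took 31.7%, 54.3% and 39.4% of the counts in wild type 7-2, 8-1 and 8-3. They took 18.5%, 26.4% and 28.7% in knockout 7-2, 7-3 and 8-3, so the groups did not overlap. Levels are CPM, the counts of a gene relative to the total of its library, with library sizes scaled by TMM factors. These factors were 0.988, 0.628 and 0.827 in the wild-type livers and 1.40, 1.10 and 1.26 in the knockout livers, and did not overlap either. Under this scaling the log2 fold change of all 14076 tested genes had a median of -0.02, and with library sizes alone the median was 0.61. Tcf7l2 itself stood at 4.88, 6.13 and 6.85 CPM in the wild-type livers 7-2, 8-1 and 8-3 and at 3.31, 2.74 and 3.33 CPM in the knockout livers 7-2, 7-3 and 8-3, so the groups did not overlap, with a log2 fold change of -0.93 ± 0.19 (SE) and an adjusted p of 0.0856 in edgeR's quasi-likelihood test. The 8 hepatocyte markers summed to 70467 to 75453 CPM in wild-type and 61240 to 84732 CPM in knockout livers. Of 14 other Wnt target and pericentral genes, 10 fell at an adjusted p under 0.05 and 0 rose. The 9 of these with counts in the knockout had log2 fold changes from -5.04 to -1.56.

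Ccnd1, which encodes cyclin D1, was the one member that passed the test across all genes, and it was lower in the knockout livers. It stood at 5.39, 7.66 and 6.54 CPM in wild type 7-2, 8-1 and 8-3 and at 3.03, 2.73 and 2.84 CPM in knockout 7-2, 7-3 and 8-3. All knockout values lay below all wild-type values, and the knockout values were closer together. The means were 6.53 ± 1.14 (SD, n = 3) and 2.87 ± 0.16 CPM, a log2 fold change of -1.19 ± 0.18 (SE), or 2.28-fold lower, with a 95% interval from -1.60 to -0.78 and an adjusted p of 0.0294 in edgeR. A single-gene exact permutation test of 3 against 3 gave p = 0.1 (two-sided), the smallest that this design allows. The call held when wild type 7-2 was left out and was lost when any other library was left out. The adjusted p in edgeR was 0.0205 without wild type 7-2, and it was 0.0835, 0.1, 0.0864, 0.091 and 0.124 without wild type 8-1, wild type 8-3, knockout 7-2, knockout 7-3 and knockout 8-3. With library sizes alone the log2 fold change was -0.52 with an adjusted p of 0.147, which is -1.13 relative to the median of all genes under that scaling. Of the other Wnt target genes, the 9 called ones above had larger fold changes than Ccnd1. Axin2, Nkd1, Znrf3 and Rnf43, uncalled in edgeR, were at -1.98, -0.05, -0.18 and 0.26. Axin2 did not overlap between the groups, with an adjusted p of 0.0654 in edgeR and 7.17e-05 in DESeq2, and Nkd1, Znrf3 and Rnf43 overlapped.

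Ccnd1 (NM_007631) lies at chr7:144929931-144939831 in GRCm38.p6. In GENCODE, long isoforms of the opposite-strand neighbour Oraov1 (LTO1) cover 61.0% of the canonical Ccnd1 transcript, and the canonical transcripts of both genes share 0 bases. The library kit keeps strand, but whether strand was used in counting is not given in the sources used here, so reads of either gene may have been counted for the other. Oraov1 stood at 1.84, 2.53 and 2.16 CPM in the wild-type livers and at 3.21, 2.16 and 2.88 CPM in the knockout livers, with an adjusted p of 0.548 in edgeR and a log2 fold change above 0, opposite in sign to that of Ccnd1.

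Of the 39 members, 34 passed the filter on low counts, and the other 5 were all mitotic genes. In edgeR 1 of 34 fell and 0 rose, against 0.377% of all 14076 tested genes that fell and 0.071% that rose. DESeq2 called 3 members lower, Ccnd1, Cdkn1a and Mcm6, and 0 higher, against 1.64% and 1.29% of 14628 genes. At an unadjusted p under 0.05 in edgeR, 7 members (20.6%) were lower and 1 was higher, against 6.76% and 6.7% of all genes. In 6 members (17.6%) all knockout values lay below all wild-type values, and in 1 they lay above, against 9.08% and 10.2% of all genes. The median log2 fold change was -0.07 over 14 G1 members, -0.24 over 12 S phase members and 0.03 over 8 tested mitotic members, and the values of single members ran from -1.87 to 0.88.

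**Figure D1:**
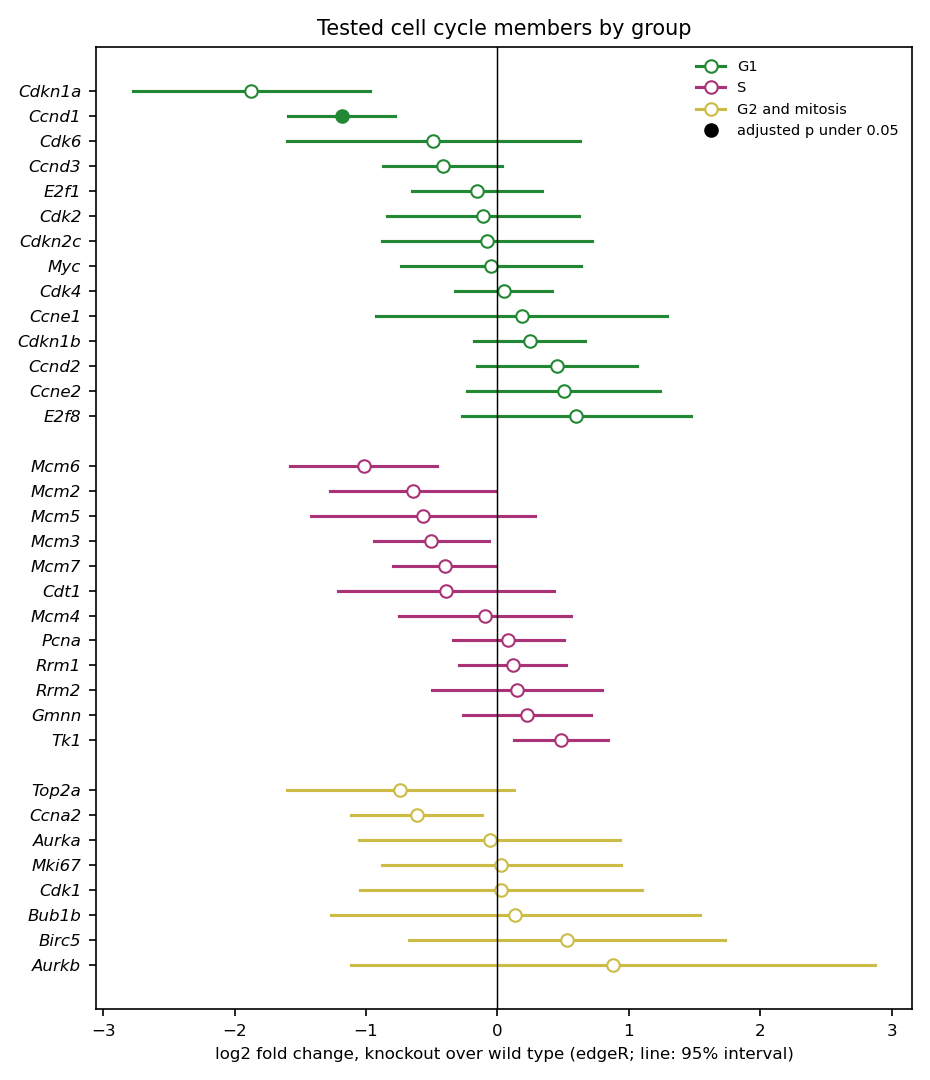
Log2 fold change of knockout over wild type (horizontal axis) for the 34 tested members, ordered within the G1, S and G2 and mitosis groups, with 3 livers in each genotype. Circles are edgeR estimates, lines their 95% intervals, and a filled circle has an adjusted p under 0.05. Ccnd1 at -1.19 is the one filled circle, and the mitotic genes have the widest lines.

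Between members, levels were compared per kb of the canonical transcript in GENCODE. Over the 6 libraries, Pcna was highest at 10.5 CPM per kb, followed by Tk1 at 6.04, Ccnd3 at 4.57, E2f1 at 4.40 and Gmnn at 4.04 CPM per kb. The median of the members' mean levels was 1.14 CPM per kb in the S phase group, 0.746 in the G1 group and 0.0661 in the mitotic group. Only Ccna2 among the mitotic genes was above 1, at 1.17 CPM per kb, and the lowest member was Ccnb1 at 0.0095 CPM per kb.

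**Figure D2:**
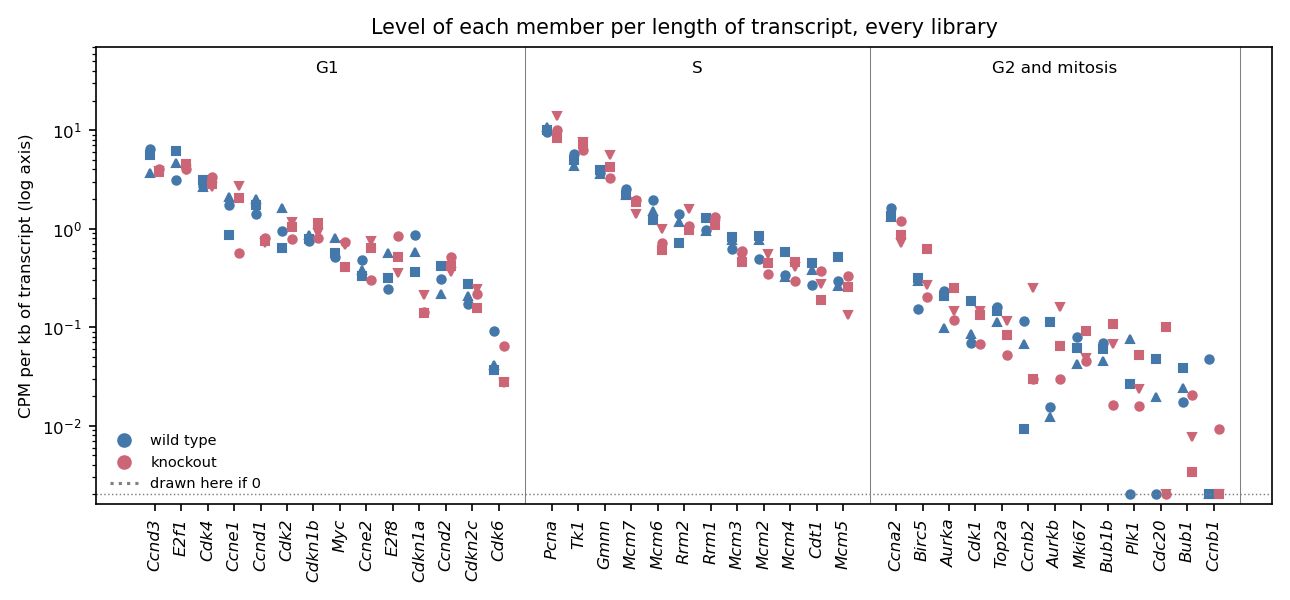
Level of all 39 members in CPM per kb of canonical transcript (log axis) in every library, wild type in blue and knockout in red, with marker shapes for the mouse labels (circle 7-2, down triangle 7-3, up triangle 8-1, square 8-3) and values of 0 drawn on the dotted line. S phase and G1 genes sit mostly above 0.1, and apart from Ccna2 the mitotic genes sit mostly below 0.5.

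Among the D-type cyclins, which bind Cdk4 and Cdk6 at the start of G1, Ccnd3 was the most abundant per kb in every library. Ccnd3 stood at 12.9, 7.41 and 11.3 CPM in wild type 7-2, 8-1 and 8-3 and at 8.17, 7.82 and 7.67 CPM in knockout 7-2, 7-3 and 8-3. Wild type 8-1 was the lowest of the 6, so the groups overlapped, and the log2 fold change was -0.42 ± 0.20 with an adjusted p of 0.406 in edgeR. The canonical Ccnd3 transcript shares 18.3% of its bases with exons of the opposite-strand gene Bysl. Ccnd2 stood at 1.97, 1.37 and 2.65 CPM in the wild-type livers and at 3.24, 2.29 and 2.66 CPM in the knockout livers. These values overlapped too, with a log2 fold change of 0.45 ± 0.27 and an adjusted p of 0.495 in edgeR. Of the CPM per kb of all D cyclins, Ccnd1 made up 17.5%, 34.2% and 22.2% in the wild-type livers and 14.9%, 14.5% and 15.1% in the knockout livers. The share of Ccnd2 was 3.83%, 3.68% and 5.39% in the wild-type livers and 9.54%, 7.30% and 8.45% in the knockout livers. Every knockout liver thus had a lower share of Ccnd1 and a higher share of Ccnd2 than every wild-type liver. These shares depend on each other, so a lower Ccnd1 level alone raises the share of Ccnd2, and they were not tested.

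Their kinase partners did not pass the test. Cdk4 stood at 5.70, 5.52 and 6.53 CPM in the wild-type livers and at 6.98, 5.48 and 5.86 CPM in the knockout livers, overlapping values with a 95% interval of the log2 fold change from -0.32 to 0.41. Cdk4 shares 31.0% of its canonical transcript with the opposite-strand gene Tspan31. Cdk6 was below 1.1 CPM in every library, with a log2 fold change of -0.49 ± 0.50.

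Of the kinase inhibitors, Cdkn1a, which encodes the p53 target p21, had the largest fold change of the 34 members tested in edgeR. It stood at 1.66, 1.11 and 0.705 CPM in wild type 7-2, 8-1 and 8-3 and at 0.272, 0.408 and 0.267 CPM in knockout 7-2, 7-3 and 8-3. The groups did not overlap, and the wild-type values spread more than 2-fold. The log2 fold change was -1.87 ± 0.40 with an adjusted p of 0.0927 in edgeR, above the threshold, and 0.00374 in DESeq2. With library sizes alone edgeR gave -1.31 with an adjusted p of 0.0473. Cdkn1b, which encodes p27, stood at 3.39, 3.93 and 3.60 CPM in the wild-type livers and at 3.64, 4.15 and 5.15 CPM in the knockout livers, with overlapping values and an adjusted p of 0.597 in edgeR. Cdkn2c, which encodes the Cdk4 and Cdk6 inhibitor p18, was at 0.467 to 0.735 CPM in wild-type and 0.418 to 0.659 CPM in knockout livers. Of 21 other p53 target genes, 20 were tested, 0 fell and 0 rose in edgeR and in DESeq2. At an unadjusted p under 0.05 in edgeR, 0 of them were lower and 2 were higher, against 6.76% and 6.7% of all genes. The median log2 fold change of the p53 targets was 0.02.

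E2f1, an activator of S phase genes, had the highest CPM in the G1 group together with Ccnd3. It stood at 8.62, 12.7 and 16.8 CPM in the wild-type livers and at 10.9, 10.9 and 12.3 CPM in the knockout livers. The knockout values lay within the wild-type range, and the log2 fold change was -0.16 ± 0.22. E2f8, an atypical E2F that represses S phase genes, was at 0.903 to 2.10 CPM in wild-type and 1.32 to 3.11 CPM in knockout livers, with a log2 fold change of 0.60 ± 0.39. Myc, another textbook Wnt target, stood at 1.23, 1.91 and 1.34 CPM in the wild-type livers and at 1.75, 1.63 and 0.963 CPM in the knockout livers. Myc overlapped between the groups, with a log2 fold change of -0.05 and a 95% interval from -0.73 to 0.63, while the interval of Ccnd1 lay below 0. The difference between both genes was not tested.

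The E cyclins and Cdk2, which act at the entry to S phase, overlapped between the groups. Ccne1 stood at 3.60, 4.34 and 1.81 CPM in the wild-type livers and at 1.17, 5.70 and 4.24 CPM in the knockout livers, so that knockout 7-2 was the lowest library and knockout 7-3 the highest. Ccne2 had a log2 fold change of 0.50 ± 0.33 and Cdk2 of -0.11 ± 0.33. Exons of the opposite-strand gene Ints8 cover 16.4% of the canonical Ccne2 transcript. The canonical transcript of Ints8 covers 201 of its 5207 bases.

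**Figure D3:**
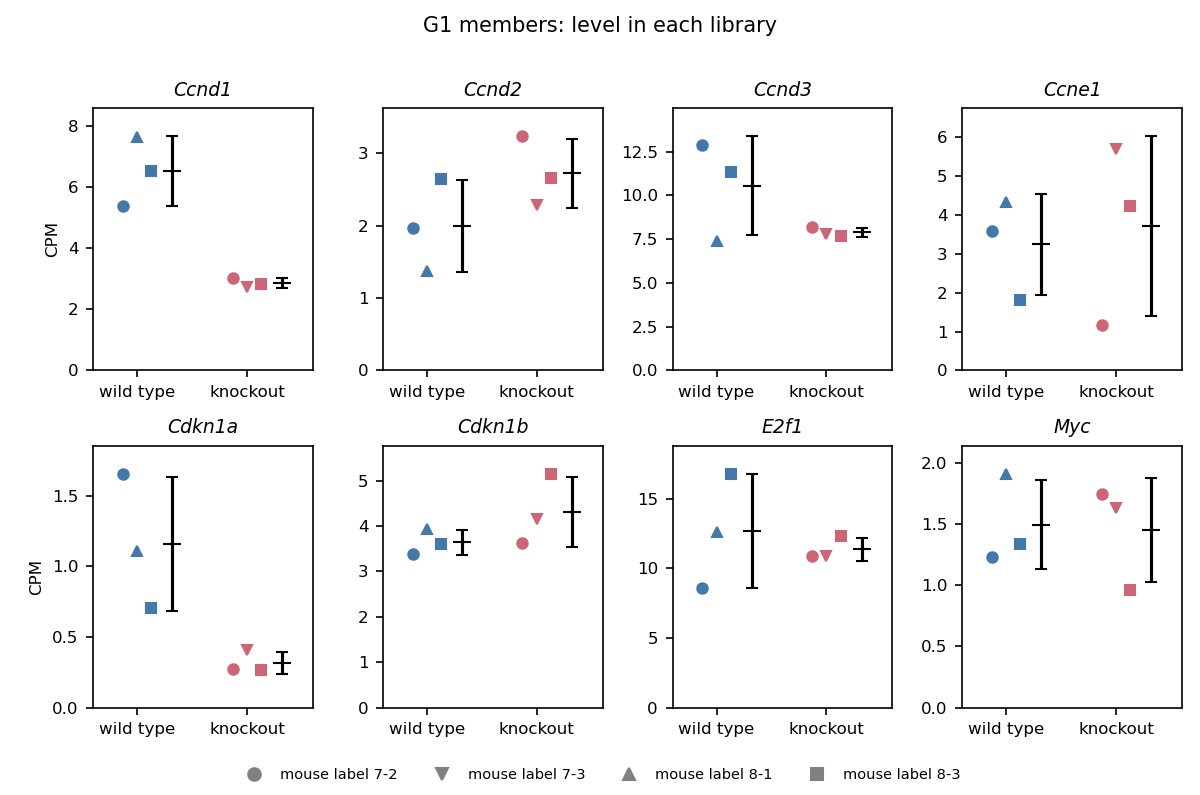
CPM (vertical axes, from 0) of 8 G1 members in each of the 3 wild-type (blue) and 3 knockout (red) livers, marker shape giving the mouse label. Black marks are means with SD. Ccnd1 and Cdkn1a do not overlap between the groups, and the other members do.

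In the S phase group, the MCM2 to MCM7 subunits, which form the ring of the replicative helicase, all had fold changes below 0. Of the 6, 0 passed the test in edgeR, and DESeq2 called 1 lower, against 1.64% of all genes. At an unadjusted p under 0.05 in edgeR 4 of the 6 were lower, against 6.76% of all genes. Mcm6 stood at 5.82, 4.53 and 3.65 CPM in wild type 7-2, 8-1 and 8-3 and at 2.15, 2.96 and 1.80 CPM in knockout 7-2, 7-3 and 8-3. The groups did not overlap, and the log2 fold change was -1.02 ± 0.25, with an adjusted p of 0.137 in edgeR and 0.0141 in DESeq2. Mcm3 stood at 3.37, 4.13 and 4.44 CPM in the wild-type livers and at 3.20, 2.71 and 2.51 CPM in the knockout livers. It did not overlap either, although wild type 7-2 and knockout 7-2 were close, and its log2 fold change was -0.50 ± 0.20 with an adjusted p of 0.309 in edgeR. Mcm2 stood at 1.67, 2.59 and 2.87 CPM in the wild-type livers and at 1.17, 1.87 and 1.52 CPM in the knockout livers, with overlapping values, a log2 fold change of -0.65 ± 0.28 and an adjusted p of 0.359 in edgeR. Mcm7, at 6.45 to 7.57 CPM in wild-type and 4.20 to 5.82 CPM in knockout livers, did not overlap and had a log2 fold change of -0.40 ± 0.18. It shares 11.8% of its canonical transcript with the opposite-strand gene Ap4m1 and 11.6% with Cops6. Mcm5 and Mcm4 overlapped, with log2 fold changes of -0.57 ± 0.38 and -0.10 ± 0.29. The 6 subunits together summed to 21.6, 20.6 and 22.8 CPM in the wild-type livers and to 15.4, 14.5 and 14.9 CPM in the knockout livers. This sum did not overlap, but the subset was set apart with earlier results of these data known, so it is a description only. The sum over all 12 S phase members did overlap. It was 56.7, 55.1 and 58.3 CPM in the wild-type livers and 52.7, 61.9 and 50.2 CPM in the knockout livers. With library sizes alone, Mcm3, Mcm4, Mcm5 and Mcm7 were at 0.15, 0.51, 0.08 and 0.22, above 0, and all 6 were below the median of all genes under that scaling, by 0.11 for Mcm4 to 1.05 for Mcm6.

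Because these subunits had fold changes of one sign, the members' promoters were searched for the site of E2F factors, spelled TTTCCCGC, TTTGGCGC or TTTCGCGC on either strand. RefSeq promoters (GRCm38.p6, 250 bases before to 50 after the start site) were found for 31 of the 39 members. The E2F site was in 5 of 10 S phase promoters, those of Mcm3, Mcm5, Mcm6, Mcm7 and Cdt1, in 1 of 10 G1 promoters and in 1 of 11 mitotic promoters, against 2.12% of all 27025 promoters. The 180 bases before the start site that the table uses for Mcm6 (chr1:128359706-128359885, minus strand) and Mcm5 (chr8:75109329-75109508, plus strand) are shown 5′ to 3′ as S phase members with more than 1 match, with the E2F letters in capitals. For Mcm5 that site lies inside the RefSeq gene, so that the last 41 bases shown are within the gene's coordinates. The long run of capitals in each is a pair of matches on opposite strands that overlap.
Mcm6: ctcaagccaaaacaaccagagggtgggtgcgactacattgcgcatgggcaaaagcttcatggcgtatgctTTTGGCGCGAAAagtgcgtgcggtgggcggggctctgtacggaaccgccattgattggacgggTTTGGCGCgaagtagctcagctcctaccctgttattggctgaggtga
Mcm5: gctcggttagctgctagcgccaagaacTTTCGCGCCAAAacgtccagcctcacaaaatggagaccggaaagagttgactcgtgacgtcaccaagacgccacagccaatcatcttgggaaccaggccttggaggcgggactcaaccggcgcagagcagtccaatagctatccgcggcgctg
The 5 S phase genes with this site had log2 fold changes from -1.02 for Mcm6 to -0.39 for Cdt1. Cdk2 and Cdk1, which hold it too, were at -0.11 and 0.03, and Mcm2, whose promoter lacks these letters, was at -0.65. The search was made after these values had been seen. A match is a string of letters and was not tested as a site.

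Of the members that supply nucleotides, 0 passed the test in edgeR or DESeq2, and Tk1 had an unadjusted p under 0.05 in edgeR. Tk1, the thymidine kinase of S phase, stood at 8.29, 6.30 and 7.17 CPM in wild type 7-2, 8-1 and 8-3 and at 9.10, 10.9 and 10.4 CPM in knockout 7-2, 7-3 and 8-3. It was the one member with all knockout values above all wild-type values, with a log2 fold change of 0.48 ± 0.16 and an adjusted p of 0.244 in edgeR. Rrm1 and Rrm2, the subunits of ribonucleotide reductase, overlapped, with log2 fold changes of 0.12 ± 0.18 and 0.15 ± 0.29. Pcna, the sliding clamp of DNA polymerase, stood at 14.4, 16.4 and 15.4 CPM in the wild-type livers and at 15.2, 21.1 and 12.7 CPM in the knockout livers. Knockout 7-3 was the highest and knockout 8-3 the lowest, and the 95% interval of the log2 fold change ran from -0.34 to 0.51. Of the licensing genes, Cdt1, which loads the helicase, was at 0.587 to 0.999 CPM in wild-type and 0.418 to 0.827 CPM in knockout livers, and its inhibitor Gmnn had a log2 fold change of 0.22 ± 0.22. GENCODE lists pseudogenes named Pcna-ps1, Pcna-ps2, Ccnd3-ps, Ccnb1-ps and Ccnb2-ps, and since multiple alignments were counted, the levels of these 4 members may include reads of the copies.

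**Figure D4:**
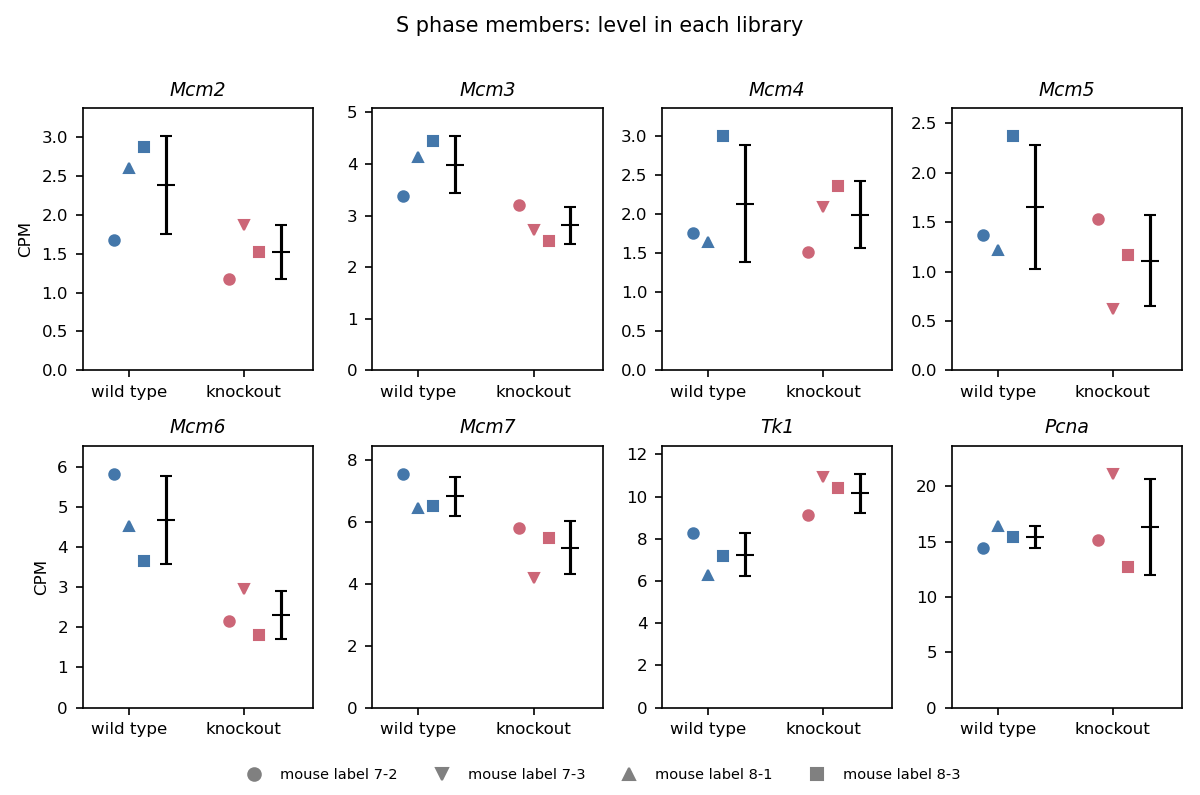
CPM (vertical axes, from 0) of Mcm2 to Mcm7, Tk1 and Pcna in each of the 3 wild-type (blue) and 3 knockout (red) livers, marker shape giving the mouse label. Black marks are means with SD. Mcm3, Mcm6 and Mcm7 are lower and Tk1 is higher in all knockout livers, and the other panels overlap.

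The mitotic genes other than Ccna2 were low in both genotypes, at means below 1 CPM, and 5 of the 13 did not pass the filter on low counts. Ccna2, whose cyclin acts in S phase and G2, stood at 4.77, 3.86 and 4.0 CPM in wild type 7-2, 8-1 and 8-3 and at 3.52, 2.12 and 2.59 CPM in knockout 7-2, 7-3 and 8-3. The groups did not overlap, with a log2 fold change of -0.62 ± 0.22 and an adjusted p of 0.28 in edgeR. Exons of the opposite-strand gene Exosc9 cover 24.1% of the canonical Ccna2 transcript, and the canonical transcript of Exosc9 covers 378 of its 2965 bases. The counts of Ccna2 may thus include reads of Exosc9. Mki67, the usual marker of cycling cells, stood at 0.813, 0.430 and 0.632 CPM in the wild-type livers and at 0.461, 0.501 and 0.940 CPM in the knockout livers. Its values overlapped, and the 95% interval of its log2 fold change ran from -0.88 to 0.94. Top2a, which untangles DNA before mitosis, stood at 0.843, 0.597 and 0.764 CPM in the wild-type livers and at 0.272, 0.606 and 0.441 CPM in the knockout livers. It overlapped by a narrow margin, between wild type 8-1 and knockout 7-3, with a log2 fold change of -0.74 ± 0.39 and an adjusted p of 0.437 in edgeR.

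Birc5, which encodes survivin, was at 0.151, 0.287 and 0.309 CPM in the wild-type livers and at 0.201, 0.263 and 0.615 CPM in the knockout livers, with knockout 8-3 alone above the rest. Aurkb, a kinase of the chromosomal passenger complex, was at 0.0301, 0.0239 and 0.220 CPM in the wild-type livers and at 0.059, 0.316 and 0.128 CPM in the knockout livers, where 3 counts correspond to 0.0348 to 0.0451 CPM. Cdk1, the kinase of mitotic entry, had overlapping values and a log2 fold change of 0.03 ± 0.48, and Aurka and Bub1b were at -0.06 ± 0.45 and 0.14 ± 0.63. Aurka shares 30.5% of its canonical transcript with the opposite-strand gene Fam210b.

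The 5 members below the filter had between 0 and 30 counts in a library. Ccnb1, which encodes cyclin B1, had 8, 0 and 0 counts in wild type 7-2, 8-1 and 8-3 and 2, 0 and 0 in knockout 7-2, 7-3 and 8-3, where a count of 0 allows a level up to that of 3 counts. Ccnb2 had 12, 9 and 1 counts in the wild-type livers and 4, 30 and 4 in the knockout livers, with most of them in knockout 7-3. Plk1, the polo-like kinase, had 0, 14 and 4 counts against 3, 4 and 10. Cdc20, an activator of the anaphase-promoting complex, had 0, 3 and 6 counts against 0, 0 and 16, and Bub1, a spindle checkpoint kinase, had 4, 7 and 9 against 6, 2 and 1. These 5 genes had no test in edgeR, so neither a difference nor its absence can be stated for them. The 12 mitotic members other than Ccna2 summed to 3.49, 2.58 and 3.91 CPM in the wild-type livers and to 1.90, 3.5 and 4.25 CPM in the knockout livers, so knockout livers held both the lowest and the highest sum.

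The cell cycle homology region (CHR), spelled TTTGAA or TTCGAA on either strand, was in 9 of 11 mitotic promoters, 2 of 10 S phase promoters and 1 of 10 G1 promoters, against 21.7% of all promoters. Cdk1 (chr10:69352913-69353092, minus strand) and Mki67 (chr7:135716380-135716559, minus strand) are shown for the 180 bases before the start sites of the table in GRCm38.p6, as mitotic genes with this element, with the CHR letters in capitals. For Mki67 the last 71 bases shown are within the gene's coordinates.
Cdk1: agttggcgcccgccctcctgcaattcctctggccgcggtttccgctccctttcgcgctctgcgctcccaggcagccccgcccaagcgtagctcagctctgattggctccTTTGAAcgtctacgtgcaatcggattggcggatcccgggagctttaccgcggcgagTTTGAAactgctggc
Mki67: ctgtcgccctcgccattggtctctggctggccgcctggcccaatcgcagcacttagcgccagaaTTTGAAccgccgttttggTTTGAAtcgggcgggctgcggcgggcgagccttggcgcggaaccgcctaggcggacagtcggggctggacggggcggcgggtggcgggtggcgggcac
The site of TCF/LEF factors was searched on either strand as CTTTGAT, or as CTTTGTT, or as CTTTGAA, a string that contains the CHR. It was in 1 of 10 G1 promoters, that of Cdk4, in 0 of 10 S phase promoters and in 4 of 11 mitotic promoters, against 15.7% of all promoters. Ccnd1 has no entry.

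A wider list of 118 other cell cycle genes held 93 tested genes, of which 0 were called in edgeR. At an unadjusted p under 0.05 in edgeR 4 of the 93 were lower and 5 higher, against 6.76% and 6.7% of all genes. DESeq2 tested 99 and called 1 lower (Cenpf) and 1 higher (Wee1), against 1.64% and 1.29% of all genes. The median log2 fold change was 0.02 over 29 further G1 and checkpoint genes, -0.07 over 34 replication genes and 0.04 over 30 mitotic genes. Wee1, the kinase that holds Cdk1 inactive, stood at 3.60, 3.24 and 1.91 CPM in the wild-type livers and at 5.25, 9.51 and 8.70 CPM in the knockout livers. All knockout values were above all wild-type values, with a log2 fold change of 1.42 ± 0.28 and an adjusted p of 0.0856 in edgeR. In edgeR the adjusted p was 0.0493 without knockout 7-2 and 0.0334 with no filter on low counts. Over the 6 fits that left out a library, 0 to 1 of the further genes were called. Cenpf, a kinetochore protein of G2 and mitosis, stood at 2.42, 2.71 and 2.62 CPM in the wild-type livers and at 1.00, 1.44 and 0.894 CPM in the knockout livers. It did not overlap either, with a log2 fold change of -1.22 ± 0.25 and an adjusted p of 0.0866 in edgeR.

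Rbl2, which encodes the pocket protein p130 of quiescent cells, was at 12.5 to 14.98 CPM in wild-type and 17.1 to 20.2 CPM in knockout livers, with a log2 fold change of 0.44 ± 0.14 and an adjusted p of 0.228 in edgeR. Exons of the opposite-strand gene Aktip cover 33.2% of the canonical Rbl2 transcript, and the canonical transcript of Aktip covers 278 of its 4948 bases. The DNA polymerase alpha subunits differed in sign, Pola1 at 0.64 ± 0.24 and Pola2 at -0.61 ± 0.25, with adjusted p of 0.294 and 0.336 in edgeR. Zwilch, a kinetochore protein, was below 0.42 CPM in every library, with a log2 fold change of 1.66 ± 0.46 and an adjusted p of 0.173 in edgeR.

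Wee1 is also a textbook target of the circadian clock, and Per2 and Cry1, repressors of the clock, had values of the same kind. Per2 stood at 5.39, 10.8 and 7.85 CPM in the wild-type livers and at 17.4, 26.2 and 15.5 CPM in the knockout livers, with a log2 fold change of 1.30 ± 0.27 and an adjusted p of 0.0895 in edgeR. Cry1 was at 1.22 to 1.55 CPM in wild-type and 2.48 to 3.54 CPM in knockout livers, with 1.06 ± 0.23 and an adjusted p of 0.0975. Of 15 clock genes, 0 passed in edgeR and 2 were called higher in DESeq2, against 1.29% of all genes called higher in DESeq2. An unadjusted p under 0.05 in edgeR was reached by 4 higher and 1 lower gene, against 6.7% and 6.76% of all genes. The groups were apart in 5 higher genes, with Per2 and Cry1 among them, and in 3 lower ones, against 10.2% and 9.08% of all genes. Those lower were Nr1d1, Clock and Arntl, at log2 fold changes of -0.66, -0.32 and -0.36. Dbp and Per1 overlapped, at 0.14 and -0.03. The part of the clock or of the time of killing in the values of Wee1 was not tested.

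**Figure D5:**
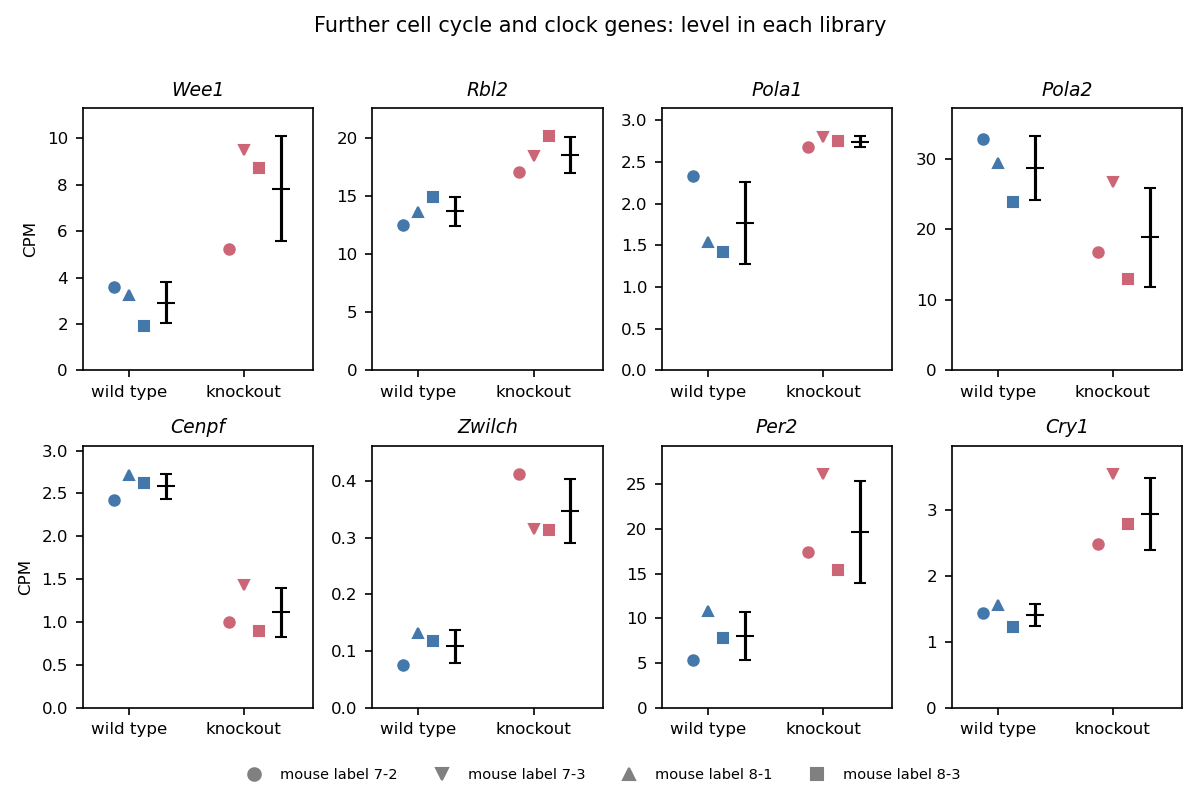
CPM (vertical axes, from 0) of the 6 further cell cycle genes named by the rule and of the clock genes Per2 and Cry1 in each of the 3 wild-type (blue) and 3 knockout (red) livers, marker shape giving the mouse label. Black marks are means with SD. Wee1, Rbl2, Pola1, Zwilch, Per2 and Cry1 are higher and Cenpf is lower in all knockout livers, and Pola2 overlaps.

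The samples were whole liver, so fewer cells of a type and less RNA per cell cannot be told apart for any member. Of the marker lists of other liver cells, 0 genes were called in edgeR. The 10 sinusoidal endothelial markers all had fold changes above 0, with 0 called in edgeR, 3 higher at an unadjusted p under 0.05 and 1 called in DESeq2, and summed to 77.6 to 86.4 CPM in wild-type and 99.9 to 107 CPM in knockout livers. The 10 stellate cell markers summed to 56.7 to 66.8 CPM and 80.4 to 89.3 CPM, with 7 fold changes above 0 and 3 below. In edgeR 0 of them were called and 5 were higher at an unadjusted p under 0.05, against 6.7% of all genes. DESeq2 called 2 of them. The 10 Kupffer cell and macrophage markers summed to 87.6 to 107 CPM and 73.0 to 91.0 CPM, overlapping, with 9 of 10 fold changes below 0, 0 called in edgeR or DESeq2 and 1, Marco, lower at an unadjusted p under 0.05 in edgeR. The cholangiocyte markers summed to 29.5 to 52.8 CPM and 27.8 to 33.7 CPM, with 4 of 5 tested below 0, 0 called in edgeR or DESeq2 and 1, Krt7, lower at an unadjusted p under 0.05 in edgeR and apart between the groups. Of 10 lymphocyte markers 4 were tested, with 0 called in edgeR or DESeq2 and 0 at an unadjusted p under 0.05 in edgeR. Of 13 markers of erythroid and neutrophil precursors 4 were tested and 0 called in edgeR, with Mpo, Camp and Ngp at 0 counts in every library. Prtn3 of that list, called lower in DESeq2 and at an unadjusted p under 0.05 in edgeR, stood at 0.331, 1.84 and 1.98 CPM in the wild-type livers and at 0.201, 0.158 and 0.139 CPM in the knockout livers. Immediate early genes were highest in wild type 7-2 and knockout 7-3, at summed levels of 110 and 87.4 CPM, against 48.9 to 67.9 CPM in the other 4 libraries. Of 10 tested, 0 were called in edgeR, an unadjusted p under 0.05 was reached by 2 higher and 0 lower genes, while Jun was called higher in DESeq2. Jun stood at 4.09, 3.21 and 2.32 CPM in the wild-type livers and at 4.51, 13.9 and 7.61 CPM in the knockout livers. The part of these cell types and of these genes in the values of the members was not tested.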

How the data were processed

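Liver RNA of 3 wild-type and 3 knockout mice was sequenced from strand-specific libraries. Raw counts for every gene were deposited by the authors, who counted uniquely and multiply aligned reads with Bedtools 2.25.0, and the submitters' processing notes name TopHat and mm10. The sources used here do not give the gene annotation. The main test was edgeR 4.0.16 (quasi-likelihood, limma 3.58.1, R 4.3.3) with TMM scaling and the default filterByExpr (minimum count 10, minimum total 15), which kept 14076 genes. P-values were adjusted over these by Benjamini-Hochberg, and genes under 0.05 were called. The members and all lists were chosen with earlier results of these data known. All 39 members were found by symbol. Values were given per library for Ccnd1, called members, the 4 of smallest p and 2 of highest mean CPM in each group, and the 2 of smallest p in each further list when none was called. Others were named after their values were seen. Transcript lengths and overlaps came from GENCODE vM39 on GRCm39. Each choice was varied in turn: DESeq2 1.42.0, limma-voom or quantile-normalised log2 counts as the test, RLE, upper-quartile, Mup-free or no factors, other filters, each library left out and a replicate block. The tests were checked on simulated data. No libraries were copies of each other. Whether the mice were independent litters is not stated, so p-values measure the spread between these samples, and floors cover counting error only.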

Additional observations from a re-analysis of the deposited data

How the results depend on the processing

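Ccnd1 kept a log2 fold change below 0 under all 17 alternatives, from -0.52 to -1.30, and was called by edgeR with RLE or upper-quartile factors, without Mup genes in the scaling, with no filter or a mean CPM of at least 1, by DESeq2, by limma-voom and on quantile-normalised counts. It was not called with library sizes alone, in 5 of 6 fits that left out a library, or with a block. The label numbers are shared by 2 pairs, 7-2 and 8-3, whose deviations correlated at 0.008 and -0.007, so the numbers were not taken to pair the mice. With a replicate block on the leading number 0 members and 39 genes in all were called, with a replicate block on the whole number 0 members, and Ccnd1 was at -1.11 (adjusted p 0.0814) and -1.01 (0.226).

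Of the members, 3 were called by DESeq2, 7 with library sizes alone (Cdkn1a lower, and Ccnd2, Ccne2, Cdkn1b, E2f8, Gmnn and Tk1 higher) and 0 to 1 with a library left out. Of the further genes, 2 were called by DESeq2, 13 with library sizes alone, 1 with no filter and 0 to 1 with a library left out. Of all genes, edgeR called 63 (10 higher, 53 lower), DESeq2 429, edgeR with library sizes alone 3024 (2936 higher, 88 lower), with no filter 96, and 24 to 89 with a library left out. Library sizes alone moved the median of all genes by over 0.6, and the members that turned above 0 there lay below that median, except Myc.

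The median log2 fold change of G1 members was 0.60 with library sizes alone, -0.0015 on quantile-normalised counts, 0.044 at a mean CPM of at least 1, -0.0046 with the block on the leading number, and -0.18 to 0.094 with a library left out. That of S phase members was 0.39 with library sizes alone and -0.10 at a mean CPM of at least 1. That of mitotic members was 0.62 with library sizes alone, -0.62 at a mean CPM of at least 1, where Ccna2 alone was left, -0.30 with the block on the whole number, and -0.40 to 0.26 with a library left out.

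No called member turned its sign. Uncalled members did so as follows, and the cause was not tested. With library sizes alone, Ccnd3 was at 0.16, Cdk2 at 0.57, Cdk6 at 0.11, Cdkn2c at 0.55, E2f1 at 0.50, Myc at 0.63, Mcm3 at 0.15, Mcm4 at 0.51, Mcm5 at 0.085, Mcm7 at 0.22, Cdt1 at 0.28, Ccna2 at 0.015 and Aurka at 0.49. On quantile-normalised counts, Cdk2 was at 0.01999, Bub1b at -0.14 and Aurka at 0.0036. With limma-voom, Ccne1 was at -0.035, Bub1b at -0.20 and Aurka at 0.00013. With the block on the leading number, E2f1 was at 0.039, Mcm4 at 0.034 and Rrm2 at -0.023. With the block on the whole number, Ccne1 was at -0.17, Cdk2 at 0.21, Myc at 0.022, Pcna at -0.10, Gmnn at -0.027, Cdk1 at -0.27, Mki67 at -0.11, Bub1b at -0.42 and Aurkb at -0.20. With a library left out, the ranges that crossed 0 were -0.27 to 0.61 for Ccne1, -0.37 to 0.33 for Cdk2, -0.061 to 0.12 for Cdk4, -1.03 to 0.045 for Cdk6, -0.22 to 0.10 for Cdkn2c, -0.37 to 0.093 for E2f1, -0.21 to 0.18 for Myc, -0.14 to 0.24 for Pcna, -0.24 to 0.23 for Mcm4, -0.11 to 0.37 for Rrm2, -0.21 to 0.57 for Cdk1, -0.37 to 0.27 for Mki67, -0.11 to 0.82 for Birc5, -0.48 to 0.59 for Bub1b and -0.43 to 0.18 for Aurka.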
